A study of Mus musculus with 6 samples.

Results

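The molecular clock of mammalian cells is a transcriptional feedback loop. The proteins of Arntl (also known as Bmal1, a symbol the table does not use) and Clock pair and activate genes through E-box sequences, and among the activated genes are the Per and Cry genes, whose proteins repress that pair. The nuclear receptors encoded by Nr1d1 and Nr1d2 (REV-ERB alpha and beta) repress Arntl, and the transcription factor Dbp carries the rhythm to output genes through D-box sequences. Skeletal muscle has such a clock, and the transcripts of most of these genes rise and fall over the day, so that their levels depend on the hour at which a tissue is taken.

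Here the 10 genes Arntl, Clock, Per1, Per2, Per3, Cry1, Cry2, Nr1d1, Nr1d2 and Dbp were taken by symbol from the deposited gene table of a bulk RNA sequencing experiment, and all 10 were found among its 14016 rows. The experiment measured poly(A) RNA of quadriceps muscle 7 days after volumetric muscle loss, the surgical removal of a piece of the muscle, in 3 WT mice (titled B6) and 3 mice labelled GATA-1 mutant. No mouse of either genotype received an implant. According to the methods, the defect of control mice was filled with sterile saline, and both legs were operated on. The mutant is the ΔdblGATA strain, which lacks eosinophils because a GATA site in a promoter of Gata1 is deleted in the germ line, so the lesion is present in every cell. The methods describe the operated WT animals as young adult C57BL/6 females and give no sex for the mutants. Neither the age nor the background strain of the mutants nor the hour of collection is given in the sources used here.

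The values below are the authors' mean log2 CPM, one number per gene. CPM scales the counts to a common library size, and the mean was taken over the samples of the authors' limma fit, which the table does not name. It may therefore cover samples other than the 6 of this series, and every level given here is subject to that limit. Such a mean carries no SD or n, it shows neither a difference between WT and mutant mice nor the spread between mice, and no test was made on it. The columns of the authors' own comparison were not used. The depth of each library is unknown. The methods state that genes above 1 CPM in at least 3 samples were kept, which 3 mice of a single genotype could satisfy, and all 10 clock genes are listed. The means in the table go down to -4.08 log2 CPM, lower than such a filter on these 6 samples would readily leave, so how it was applied is not known. In bulk tissue, fewer cells of a type and less RNA per cell cannot be told apart.

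The table had the character of muscle. All 7 skeletal muscle markers checked were listed, with a median of 12.59 log2 CPM. All 5 leukocyte and macrophage markers were listed, between 4.40 and 6.15 log2 CPM, Adgre1 among them under its older symbol Emr1. The fibroblast markers, 3 in number, lay between 5.73 and 11.67, and the endothelial markers Pecam1 and Cdh5 at 6.41 and 6.53. Of 3 markers of other tissues, Epcam and Ins2 were not listed, while Alb was listed at -1.41 log2 CPM. None of 5 eosinophil markers was listed, and Gata1, the targeted gene, was not listed either, so it offered no check of the genotypes.

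The genes were not chosen by the sequence near their starts. The motifs, however, include those of the loop described above, in which Per and Cry genes are activated through E-boxes. Matches in these genes are therefore no independent evidence for that loop. Promoter windows of RefSeq (GRCm38.p6), each from 250 bases before to 50 bases after an annotated start, were found for 9 of the 10 genes, 13 windows in all, with none for Per2. They were searched on both strands for the letters of the E-box (CACGTG), the E'-box (CACGTT), the core of the REV-ERB and ROR element or RORE (AGGTCA), the D-box (TTATGTAA and TTACGTAA), a D-box variant (TTATGCAA) and the cAMP response element (TGACGTCA). The matches below are shown because they are those of E-box and D-box type, through which the activator pair and Dbp bind. Of the RORE core matches only that of Arntl is shown, as a gene that the REV-ERB proteins repress. It lies 31 to 36 bases after the start. Capitals mark the match, and each sequence is written along the strand of its gene.
Per1, E-box, chr11:69098771-69098800, + strand: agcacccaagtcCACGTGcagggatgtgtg
Cry1, E-box, chr10:85185097-85185126, - strand: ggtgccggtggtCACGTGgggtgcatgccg
Cry1, E'-box on the other strand, chr10:85185116-85185145, - strand: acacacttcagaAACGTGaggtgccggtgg
Cry2, E'-box on the other strand, chr2:92434218-92434247, - strand: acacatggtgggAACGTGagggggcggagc
Nr1d1, E'-box on the other strand, chr11:98775388-98775417, - strand: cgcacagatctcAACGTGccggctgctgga
Per3, D-box, chr4:151044852-151044881, - strand: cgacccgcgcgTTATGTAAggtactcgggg
Per3, D-box, chr4:151044805-151044834, - strand: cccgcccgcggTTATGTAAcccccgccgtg
Per1, D-box variant, chr11:69098914-69098943, + strand: agggcctggcaTTATGCAAcccgcctccca
Arntl, RORE core, chr7:113207530-113207559, + strand: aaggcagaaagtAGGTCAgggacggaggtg

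An E-box stood in windows of Per1 and Cry1, 2 of the 9 genes, where 8.09% of the 27025 genes with a window held one. The E'-box letters were found in Cry1, Cry2 and Nr1d1, 3 of 9, against 5.44% of all genes. In Cry1 the motifs lay close together, with the E'-box starting 79 bases and the E-box 60 bases before the start. The D-box letters TTATGTAA were found in Per3 alone among the 9 genes and occurred there at 2 places, 205 and 158 bases before the start, against 1.11% of all genes. The variant TTATGCAA was found in Per1, against 0.888% of genes. The RORE core was found in Arntl, Clock, Nr1d2 and Per1, 4 of 9, but this commoner word occurs in 18.1% of all genes. TTACGTAA and TGACGTCA were found in none of the 9 genes, and in 0.126% and 2.03% of all genes. The window of Dbp held none of the letters searched. Genes with several starts, such as Per1 and Clock, have more bases in which to match, and these counts are a description of letters, not of bound sites. The RefSeq starts also differ in part from the GENCODE M21 gene models used for lengths and positions below. For Cry2 and Nr1d1, the bases just after the RefSeq start were not found in any GENCODE transcript of the gene. The Per1 windows lie inside the span of the gene given below, not at its first base.

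**Figure D1:**
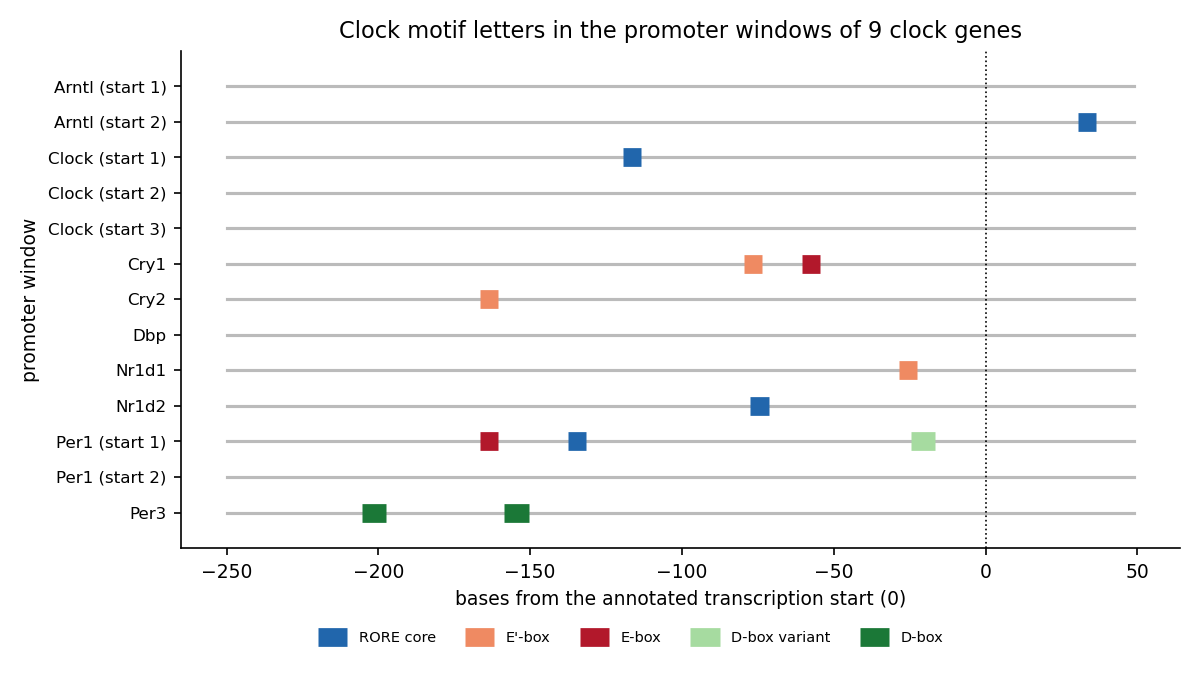
Positions of clock motif letters (coloured blocks) in the 13 promoter windows (grey lines) of 9 clock genes, in bases from the start annotated by RefSeq at 0. The E-box and E'-box blocks lie before the start in Cry1, Cry2, Nr1d1 and Per1, and Per3 carries 2 D-box blocks.

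The activator genes differed widely from each other. Arntl (chromosome 7 of GRCm38, 113207465 to 113314126, + strand) was listed at 3.94 log2 CPM, with 48.2% of all listed genes below it. Clock (chromosome 5, 76209868 to 76304792, - strand), which encodes its partner, was listed at 1.75 log2 CPM, with 20.9% of genes below, and was the lowest of the 10 genes. The longest coding transcript of Clock has 9744 nt and that of Arntl 2976 nt, and a long transcript gives more reads per molecule. On the scale of log2 CPM per kilobase of that transcript, Arntl stood at 2.36 and Clock at -1.54, a ratio of 14.9 between the authors' means. The ratio was 4.55 without length scaling. The paralog Npas2, whose protein can take the place of CLOCK in the pair, stood at 0.40 on the same scale, and Arntl2, the paralog of Arntl, at -0.45, so Clock was below both paralogs per kilobase. By the deposited value it was above Arntl2, which was listed at 1.10 log2 CPM. Whether the low mean of Clock holds in each genotype cannot be seen from a pooled value.

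Of the period genes, which encode the PER repressors, Per1 (chromosome 11, 69095217 to 69109960, + strand) and Per3 (chromosome 4, 151003652 to 151044665, - strand) were listed close together at 4.48 and 4.32 log2 CPM. Per2 (chromosome 1, 91415982 to 91459324, - strand) was listed lower, at 2.67, with 29.6% of genes below it. Per kilobase the order was the same, with Per1 at 2.26, Per3 at 1.73 and Per2 at 0.13. Per1 was thus 4.37 times Per2 per kilobase, and Per3 3.04 times Per2. The spread between mice behind these ratios is unknown.

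The products of the cryptochrome genes act with PER. Cry2 (chromosome 2, 92403646 to 92434043, - strand) was listed at 4.69 log2 CPM and Cry1 (chromosome 10, 85131700 to 85185064, - strand) at 3.77. Per kilobase of the longest coding transcript they stood at 2.70 and 2.17, a ratio of 1.44. This order turned when the median length of the coding transcripts was used, with Cry1 at 3.09 and Cry2 at 3.07, so the cryptochromes could not be ordered by these values.

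The REV-ERB genes had the highest deposited values among the 10 clock genes. Nr1d1 (chromosome 11, 98767932 to 98775333, - strand) was listed at 7.21 log2 CPM, with 94.1% of all listed genes below it. Nr1d2 (chromosome 14, 18204054 to 18239127, - strand) was listed at 6.35 log2 CPM, with 88.2% of genes below. Per kilobase, Nr1d1 stood at 5.77 and Nr1d2 at 4.13, a ratio of 3.12. It was 1.80 with the median length of the coding transcripts and 1.82 without length scaling. Nr1d1 was the highest of the 10 genes on every length scale used. The output factor Dbp (chromosome 7, 45705088 to 45710203, + strand) was listed at 5.17 log2 CPM, with 71.6% of genes below. Its longest coding transcript of 1837 nt is the shortest of the 10, and per kilobase it stood at 4.29, above Nr1d2. With the median length of the coding transcripts that order turned, with Nr1d2 at 4.92 and Dbp at 4.84.

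**Figure D2:**
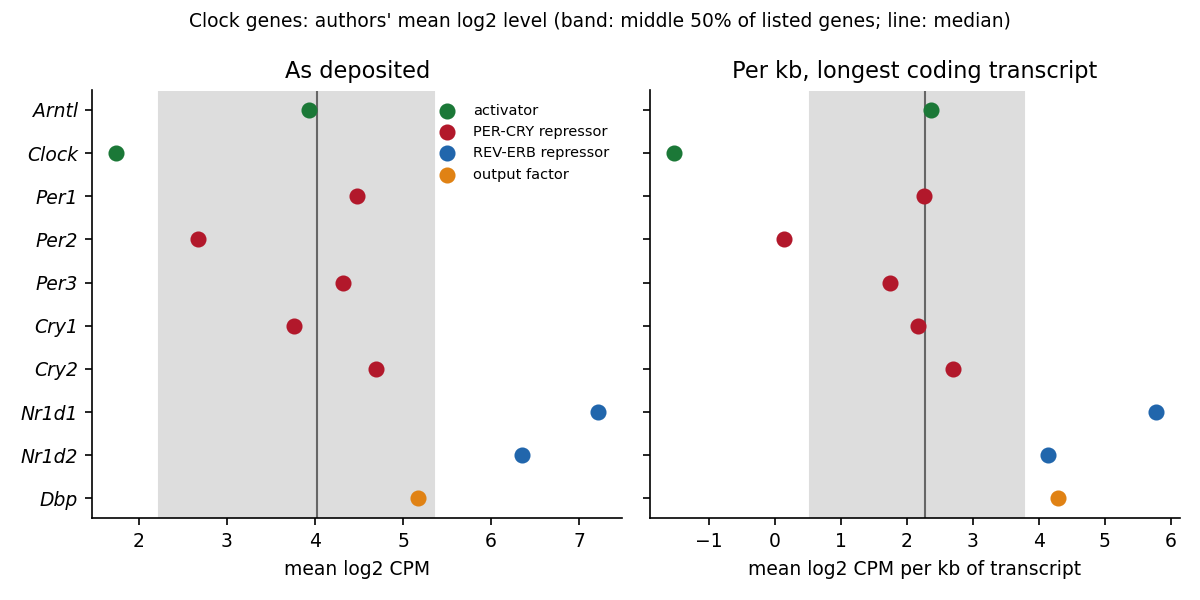
The authors' mean log2 CPM of the 10 clock genes as deposited (left) and per kilobase of the longest coding transcript (right), 1 point per gene, coloured by role, with the range between the quartiles of all listed genes as a grey band and their median as a line. Nr1d1 at 7.21 and Nr1d2 at 6.35 lie above the band on the left, and Clock at 1.75 lies below it. On the right, Nr1d1, Dbp and Nr1d2 lie above the band, and Per2 and Clock below it. There are no error bars because the table gives 1 pooled value per gene.

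The median of the 10 clock genes was 4.40 log2 CPM, beside 4.03 for all 14016 listed genes, and 6 of the 10 lay at or above that median. Of the 10, 7 lay between the quartiles of all genes, 2.23 and 5.36, while Clock lay below them and Nr1d1 and Nr1d2 above. By definition, quartiles enclose about as many of all genes as they leave outside. Per kilobase the median of the clock genes was 2.31, beside 2.28 for the 13938 genes with a known length, and 5 of the 10 were at or above it. The quartiles per kilobase were 0.53 and 3.78. Nr1d1 at 5.77, Dbp at 4.29 and Nr1d2 at 4.13 lay above them, and Per2 at 0.13 and Clock at -1.54 below. By this measure Arntl, Per1 and Cry1 lay close to the median gene, with 51.4%, 49.6% and 48.1% of genes below them.

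**Figure D3:**
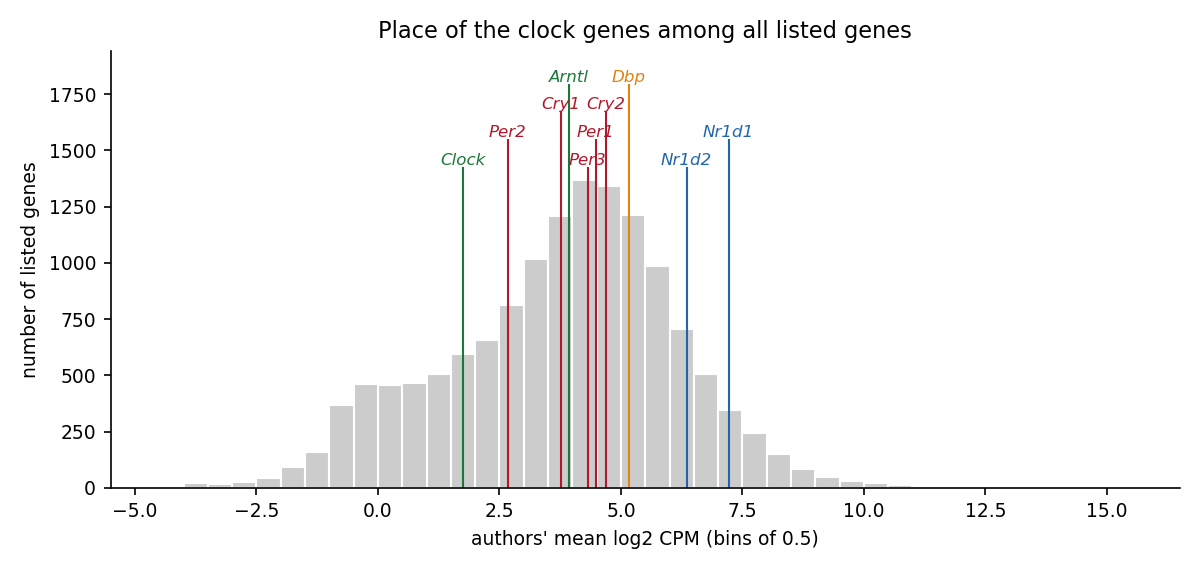
Number of listed genes by the authors' mean log2 CPM, in bins of 0.5, with a line at the value of each clock gene. Arntl, Cry1, Per1, Per3 and Cry2 stand near the peak of the distribution, Nr1d1 and Nr1d2 on its upper flank and Clock and Per2 on its lower flank.

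Further genes of the pathway, 16 in number, of which 15 were listed, give the setting of these levels. Their median was 2.81 log2 CPM per kilobase, and 9 lay at or above the median of all genes. The kinases and ubiquitin ligases that act on PER and CRY proteins lay between 2.81 and 4.68 for the 4 listed members. The highest was Csnk1d, a casein kinase, and Fbxl21 was not listed. Of the D-box factors, Tef, a relative of Dbp, stood at 5.39 and so 2.15 times as high per kilobase as Dbp, a ratio that was 5.16 without length scaling, whereas the third relative Hlf stood at -0.17. Nfil3, which represses through the D-box, stood at 3.73. Among the ROR genes, which encode activators at the same element that the REV-ERB proteins repress, Rora stood at 2.81 and Rorb at -3.53. Rorb was the lowest of the clock genes and listed pathway genes, not of all genes in the table. The E-box repressors Bhlhe40 and Bhlhe41 stood at 4.98 and 3.08, and Ciart, a repressor of the activator pair, at -0.44. Timeless, a homolog of a fly clock gene with a role in DNA replication, stood at 0.92.

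**Figure D4:**
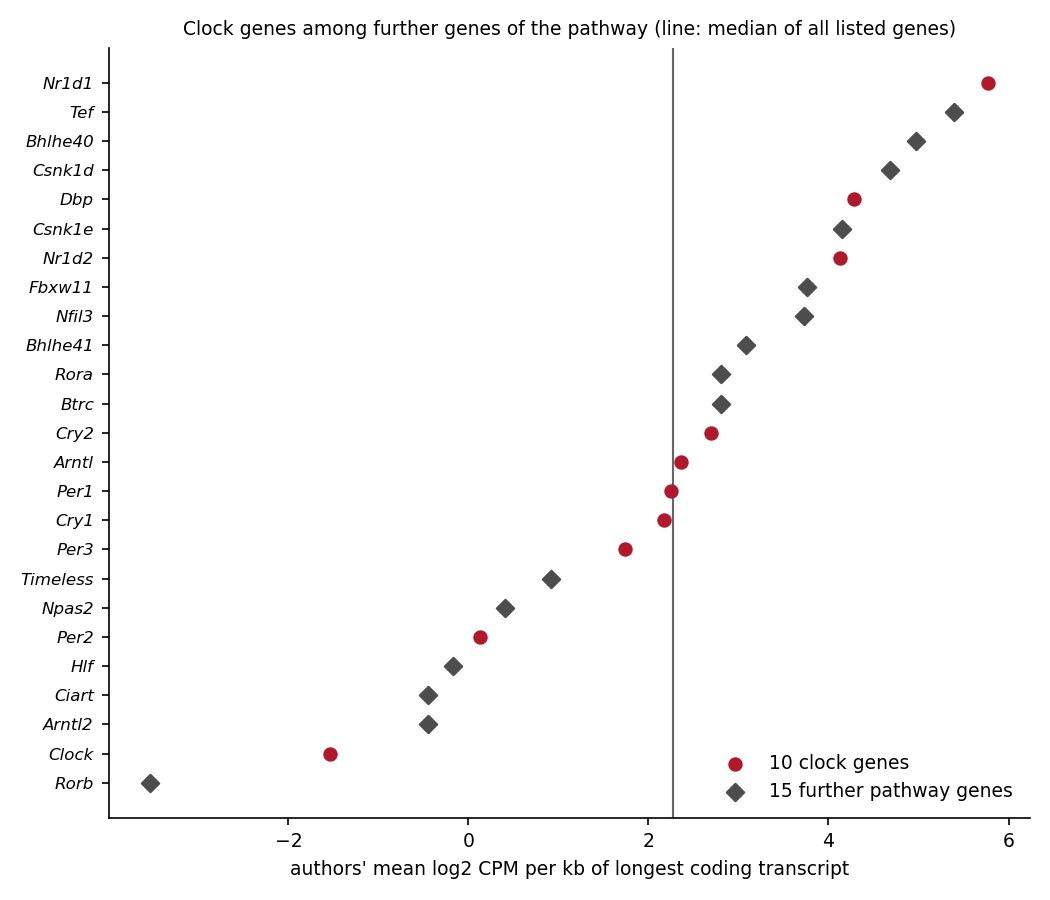
The authors' mean log2 CPM per kilobase of the longest coding transcript for the 10 clock genes (circles) and 15 further pathway genes (diamonds), 1 pooled value per gene, with the median of all listed genes as a line. Nr1d1 at 5.77 and Tef at 5.39 are the highest and Clock at -1.54 and Rorb at -3.53 the lowest.

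Part of the sequence behind some of these values is shared with other genes. The reads had been assigned by kallisto, which matches short words of sequence, and the sources used here do not say whether strand was kept. In the GENCODE M21 annotation of GRCm38, the exons of Dbp overlap those of Sphk2 on the opposite strand over 539 bases, and 28.3% of the 31-base words in the longest coding transcript of Dbp occur in other genes on either strand. Sphk2, a sphingosine kinase gene, was itself listed at 4.51 log2 CPM. The exons of Nr1d1 likewise overlap those of Thra, a thyroid hormone receptor gene, on the opposite strand over 263 bases, with 8.88% of its words shared, and Thra was listed at 6.58 log2 CPM. Without strand, reads that lie wholly in such a stretch fit both genes, so the levels of Dbp and Nr1d1 are uncertain, and how the authors' counting divided such reads was not tested. For Nr1d2 the share was 11.1%, all of it with a gene model, AC170187.1, that the table does not list. The level of Nr1d2 and its ratio to Nr1d1 are therefore uncertain too, and how such reads were divided was not tested. For Cry2 the share was 3.93%, most of it with the antisense transcript D930015M05Rik, which is not listed either. Arntl, Clock and Per3 shared at most 0.238% of their words, and Per1, Per2 and Cry1 shared none.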

How the data were processed

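The series holds 6 samples, 3 per genotype, with groups taken from the genotype label. According to the paper's methods, the authors pseudoaligned paired-end reads with kallisto, assigned genes with ensembldb, obtained CPM from edgeR, removed genes that did not exceed 1 CPM in 3 or more samples, took logarithms, normalized by TMM and fitted limma. The submitters' processing notes name GRCm39 (mm39), and the kallisto index is not given in the sources used here. The deposited log2 values used here are the authors' mean log2 CPM per gene. The mean of logarithms is lower than the logarithm of the mean when samples differ. The other 5 columns hold the authors' comparison of the genotypes (log2 fold change, moderated t, p-value, adjusted p-value and log odds) and were not used, so the limma test of genotype that had been planned for values per sample was not run. Depth is unknown and no interval was set.

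Of 14016 rows 1 has no symbol. A gene model of GENCODE M21 (GRCm38) was found by symbol for 13458 rows and by RefSeq synonym for 480, so that 99.4% of rows had a transcript length. The level per kilobase is the deposited value minus log2 of the longest coding transcript in kilobases, or of the longest transcript where none is coding. A gene's place is the percent of listed genes with a lower value. Both calculations were tested on simulated data. Positions are those of GRCm38 and were not converted. Shared words are the 31-base words of the longest coding transcript found in transcripts of other genes. Promoter windows came from the RefSeq table for GRCm38.p6. Python 3.11.15, numpy 2.4.6, pandas 2.3.3 and matplotlib 3.10.9 were used. The genes named are the 10 clock genes, the list of further pathway genes (of which some are not reported here), the marker lists, Gata1 and, named after their values were seen, genes overlapping the clock genes. The members and lists were chosen with earlier results of these data known, and the motifs after the table had been read. The alternatives were other transcript lengths, no length scaling, a minimum level and protein-coding genes only.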

Additional observations from a re-analysis of the deposited data

How the results depend on the processing

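No paired analysis was possible because the values used are 1 pooled mean per gene, and for the same reason the settings meant for values per sample (other pseudocounts, no filter, leaving out each replicate, a block for the replicate number and median centring) were not run. The median level of the 10 clock genes, 2.31 log2 CPM per kilobase of the longest coding transcript, was 2.21 with the longest transcript of any kind, 2.78 with the median length of the coding transcripts and 4.40 without length scaling. Under the first of these only Arntl was lower, and under the second 7 genes were higher, by up to 0.92 for Cry1. Nr1d1 stayed first and Per2 and Clock last under all of these. The median share of listed genes below a clock gene, 57.2%, was 49.6% among the 11897 genes at a mean of 1 log2 CPM or more and 56.6% among the 13694 protein-coding genes. At the minimum of 1 log2 CPM the share was lower for all 10 genes, and that of Clock went from 20.9% to 6.83%. The number of clock genes at or above the median level per kilobase, 5, was 3 among genes at that minimum, 5 among protein-coding genes and 6 without length scaling. That minimum removes weakly expressed genes from the ranking, which raises the median.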
